A study of Mus musculus with 149 samples.

Results

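The cells described here are the captures from the medium and small chips in which most of the measured signal was spike-in RNA. A cell was a member when its ERCC rows, which count synthetic RNAs present in the lysis reaction, made up 50% or more of the sum of its column. The rule gave 23 cells of the medium chip (traps of 10 to 17 µm) and 27 cells of the small chip (traps of 5 to 10 µm), 50 of the 149 cells in all. The other 7 medium-chip cells and 12 small-chip cells lay under 50%. All cells came from the liver of 1 male C57BL/6 mouse of 8 weeks, with no treatment named in the labels, and its perfused liver was enriched for hepatocytes by centrifugation. Each trap size is 1 chip as far as the labels say, so trap size, chip and capture run cannot be told apart, and the cells of a chip are not replicates of a condition. No p-value is therefore given, and differences are described by the cells' values.

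Hepatocytes are arranged along the liver lobule between the portal tract, where blood enters, and the central vein, where it leaves. Periportal hepatocytes are known for urea synthesis, amino acid breakdown and gluconeogenesis. Pericentral hepatocytes are known for cytochrome P450 enzymes, which modify drugs and steroids, and for the capture of remaining ammonia, and Wnt signals from the central vein maintain many of their genes. Spike-ins enter each lysis reaction in a like amount, so a large spike-in share means little cellular RNA beside them. Fewer cells, less RNA per cell and poorer recovery of RNA give the same share.

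Because the members differed in total RNA signal, every cell was rescaled to the same sum of mouse genes, 1000000, and values below are on this rescaled scale. The members were chosen by their spike-in share, so its values are a description. The share was 52.1% at the lowest, 86.7% at the median and 96.8% at the highest in medium-chip cells, against 50.4%, 89.5% and 96.6% in small-chip cells. Just inside the threshold were medium-chip cells 1 and 4 (52.1% and 57.4%) and small-chip cells 18 and 35 (50.4% and 69.9%). Just outside it were medium-chip cells 18 and 21 (35.1% and 28.01%) and small-chip cells 26 and 39 (48.98% and 48.89%). Genes above 0 numbered 1215, 2120 and 4291 (lowest, median and highest) in medium-chip cells, against 1488, 2372 and 4391 in small-chip cells, and these ranges overlapped almost fully. Of the 92 spike-in species, a median of 46 were above 0 in medium-chip cells and 47 in small-chip cells. Genes above 0 in at least 20% of the 50 cells, 4507 in number, were compared. A gene was called higher in a chip when its mean was 2-fold or more above that of the other chip after 10 was added to each mean, and when this held also without the highest cell of each chip for that gene. The rule is one of size and not a test.

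Small-chip captures carried pericentral transcripts that medium-chip captures lacked or held at low level, and medium-chip captures carried more of several periportal transcripts. Oat, Cyp3a11, Rgn and Gulo were the clearest of the first kind, and Uroc1, Ass1, Hal and Cps1 stood out among the second. Of all genes compared, 673 (14.9%) were called higher in medium-chip cells and 327 (7.26%) higher in small-chip cells, so that 67.3% of calls lay in the medium direction. By the means alone, without the second condition, 1246 genes (27.6%) were 2-fold or more higher in medium-chip cells and 621 (13.8%) in small-chip cells. That split changed with the cells included, to 52.2% at 70% spike-in or more, 50.2% without cells holding 3 or more markers of another cell type and 57.1% without 2 cells with macrophage markers. It was 52.9% by differences of mean log2 values. The scaling moved it too. Values as deposited gave 81.1% of calls in the medium direction, scaling to the spike-ins 81.5% and scaling without the 50 genes of largest sum 43.9%. The median log2 ratio over all genes, medium over small, was 0.16, and 0.40, 0.46 and -0.14 under those scalings. The pericentral list had 0 genes called higher in medium-chip cells and 13 called higher in small-chip cells of 18 compared (23 listed), with a median log2 ratio of -1.69. The periportal list had 11 called higher in medium-chip cells and 1 called higher in small-chip cells of 23 compared (24 listed), with a median log2 ratio of 1.11. Both list medians kept their sign under those scalings, at -1.76, -2.01 and -2.17 for the pericentral list and at 1.53, 1.48 and 0.82 for the periportal list.

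The upstream sequence of a pair of genes from each side is shown because these 4 genes are described first among those with a large zonated difference. They were chosen after their values were seen, and other list members had larger ratios (Cyp2c54, -6.72, and Cdh1, 3.19). Each is the 200 bases before the RefSeq transcription start in GRCm38.p6, written 5′ to 3′ on the gene's own strand. Oat is chr7:132576399-132576598 on the minus strand, Cyp3a11 chr5:145879855-145880054 on the minus strand, Uroc1 chr6:90333089-90333288 on the plus strand and Ass1 chr2:31470070-31470269 on the plus strand. Capitals mark the letters of motifs searched on both strands: TATAAA, the core CAAAGTCCA of HNF4A, a transcription factor of hepatocytes, and the core CTTTGA of TCF/LEF, the factors through which Wnt signals act.
Oat: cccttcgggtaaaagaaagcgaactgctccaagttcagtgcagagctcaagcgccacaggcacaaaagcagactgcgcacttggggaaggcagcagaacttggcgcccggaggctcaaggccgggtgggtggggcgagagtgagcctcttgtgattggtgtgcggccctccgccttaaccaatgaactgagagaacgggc
Cyp3a11: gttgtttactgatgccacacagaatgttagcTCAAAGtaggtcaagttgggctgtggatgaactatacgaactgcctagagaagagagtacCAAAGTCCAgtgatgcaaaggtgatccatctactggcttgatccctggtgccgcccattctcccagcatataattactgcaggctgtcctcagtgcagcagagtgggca
Uroc1: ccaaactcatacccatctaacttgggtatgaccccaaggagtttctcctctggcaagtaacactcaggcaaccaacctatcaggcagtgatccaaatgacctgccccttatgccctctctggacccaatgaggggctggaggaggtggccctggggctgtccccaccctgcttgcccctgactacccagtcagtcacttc
Ass1: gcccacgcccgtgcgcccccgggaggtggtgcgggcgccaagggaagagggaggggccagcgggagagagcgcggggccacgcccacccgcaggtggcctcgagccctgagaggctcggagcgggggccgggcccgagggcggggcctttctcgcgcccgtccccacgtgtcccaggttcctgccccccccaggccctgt
Only the Cyp3a11 window of these 4 held a motif, 1 HNF4A core and, on the reverse strand, 1 TCF/LEF core, which do not overlap. The GENCODE spans given below begin inside the windows of Cyp3a11, Ass1 and Uroc1, upstream of the RefSeq start used here. Part of each of these windows is therefore annotated transcript by GENCODE. The HNF4A core of Cyp3a11 lies in that part, and its TCF/LEF core lies upstream of both starts. Among 32851 RefSeq promoters searched over the same length, 9.96% held TATAAA, 0.317% the HNF4A core and 10.9% the TCF/LEF core. These matches are letters in a window and not measured binding.

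Oat encodes ornithine aminotransferase, a mitochondrial enzyme of ornithine breakdown that is restricted to cells around the central vein in mouse liver (chr7:132557478-132576398, minus strand, GENCODE M21 on GRCm38). Its value was 0, 0 and 25.7 (lowest, median and highest) in medium-chip cells, against 0, 119 and 3079 in small-chip cells. It was above 0 in 2 of 23 medium-chip cells (8.70%, exact Clopper-Pearson 95% interval 1.07% to 28.04%) and in 24 of 27 small-chip cells (88.9%, 70.8% to 97.6%). Intervals of this kind cover counting error over cells only. The log2 ratio was -5.12, and 22 small-chip cells lay above the highest medium-chip cell. Oat was also 1 of only 4 genes above 0 in at least 50% of small-chip cells and at most 10% of medium-chip cells (0.0888% of genes compared). The others were Thrap3, Nelfcd and Vps13d, and the converse held for Trim34a and Znrf1 (0.0444%). Nelfcd, Vps13d and Trim34a were singled out after their values were seen.

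Cyp3a11 encodes a major drug-metabolising cytochrome P450 (chr5:145854426-145879964, minus strand). Its value was 0, 3.83 and 144 in medium-chip cells (15 of 23 above 0), against 103, 418 and 2960.1 in small-chip cells (27 of 27). The log2 ratio was -4.75, and 23 of 27 small-chip cells exceeded every medium-chip cell. The lowest small-chip cell thus lay far above the median medium-chip cell. Rgn, regucalcin, a calcium-binding protein and gluconolactonase of vitamin C synthesis in mice (chrX:20549787-20562089, plus strand), was 0, 35.3 and 719.6 in medium-chip cells, against 183, 1012 and 2759 in small-chip cells. Its log2 ratio was -3.48, with 15 small-chip cells above the highest medium-chip cell. Gulo, the last enzyme of vitamin C synthesis in mice, was listed at 0 in all 23 medium-chip cells, and it was above 0 in 12 of 27 small-chip cells, at up to 332.

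Slco1b2, an uptake carrier for bile acids and other organic anions, was 0.864, 65.04 and 3239 in medium-chip cells, against 58.8, 1198 and 20376 in small-chip cells, a log2 ratio of -2.46. The groups overlapped, but 96.3% of small-chip cells lay above the medium-chip median. Cyp1a2, which metabolises caffeine and aromatic amines, was 0, 16.3 and 1724 in medium-chip cells, against 5.23, 281 and 5890.0 in small-chip cells (log2 ratio -1.88). Cyp2e1, a P450 of ethanol oxidation, was 0, 7.36 and 9789.9 in medium-chip cells, against 0, 242 and 9213 in small-chip cells. A single medium-chip cell holds that highest value: the log2 ratio was -1.16 with all cells and -2.90 without the highest cell of each chip. Tbx3, a transcription factor and Wnt target, was above 0 in 5 of 23 medium-chip cells and in 19 of 27 small-chip cells (log2 ratio -1.22).

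Not every pericentral gene differed. Glul, glutamine synthetase, the hallmark of the innermost pericentral layer, was 0, 1.44 and 423 in medium-chip cells, against 0, 0 and 121 in small-chip cells. It was above 0 in 12 of 23 and 13 of 27 cells, and its log2 ratio of 0.82 was not called. Slc1a2, a glutamate transporter of the same layer, was not called either (0.18). Among cytochrome P450 genes and their reductase, 2 were called higher in medium-chip cells and 11 higher in small-chip cells of 25 compared. The shares over all genes were 14.9% and 7.26%. The median log2 ratio of the list was -1.16. Cyp2c29, Cyp2c54 and Cyp2c68 had log2 ratios of -3.42, -6.72 and -5.81. Reads may have been split between those members of the Cyp2c family that are close in sequence. Without the highest cell of each chip the Cyp2c54 ratio went to -4.35 and the Cyp2c68 ratio to -4.66.

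**Figure D1:**
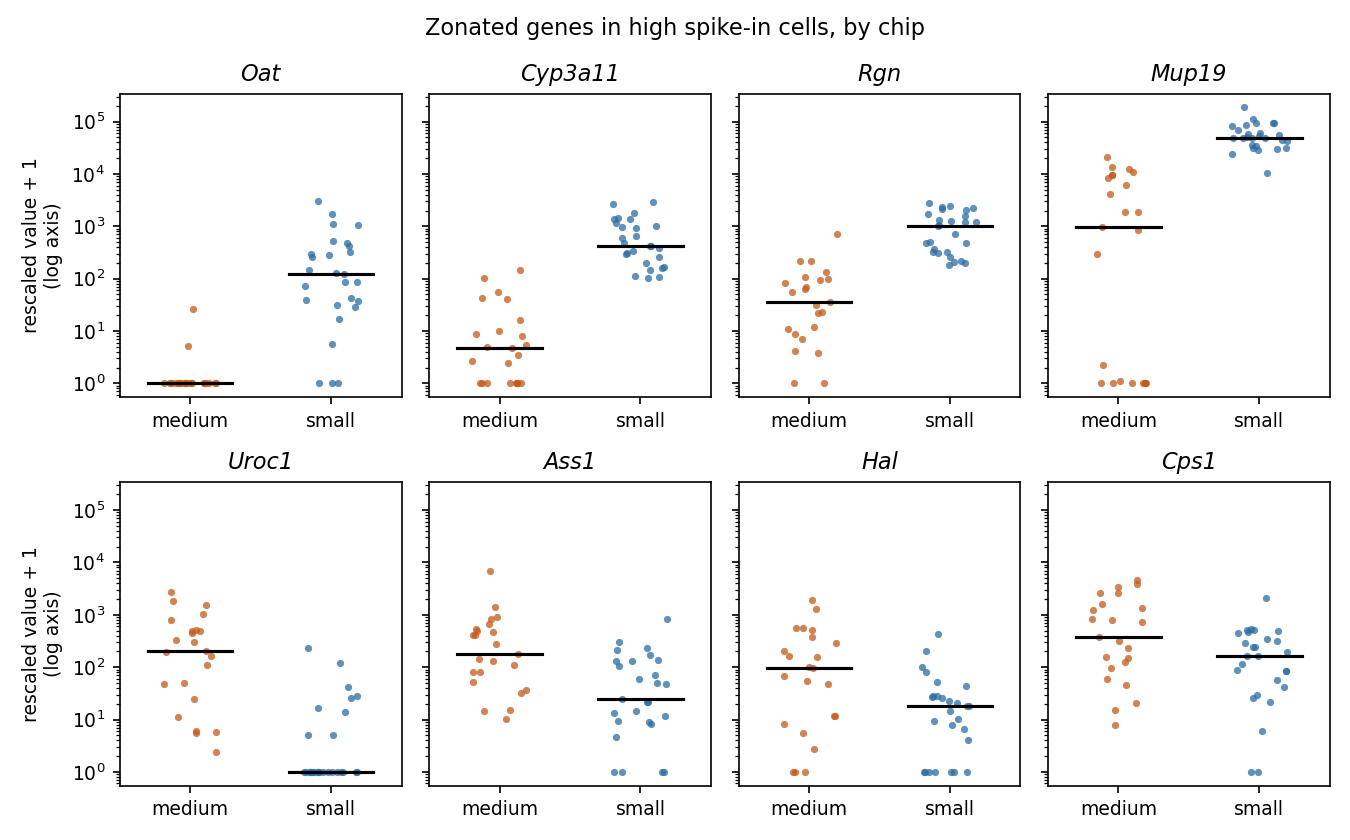
Rescaled value plus 1 on a log axis for each high spike-in cell, medium chip (23 cells, left, orange) and small chip (27 cells, right, blue); bars are medians. Oat, Cyp3a11, Rgn and Mup19 sit higher in small-chip cells, with medians of 119, 418, 1012 and 48678, and Uroc1, Ass1, Hal and Cps1 sit higher in medium-chip cells, with medians of 207, 181, 97.3 and 377.

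Uroc1 encodes urocanase and Hal histidine ammonia-lyase, the successive first enzymes of histidine breakdown. Uroc1 (chr6:90333284-90364551, plus strand) was 1.36, 207 and 2681 in medium-chip cells, against 0, 0 and 231 in small-chip cells. It was above 0 in 23 of 23 medium-chip cells (100%, 85.2% to 100%) and in 9 of 27 small-chip cells (33.3%, 16.5% to 53.96%). Its log2 ratio was 4.18, and 11 medium-chip cells lay above the highest small-chip cell. Hal was 0, 97.3 and 1910.2 in medium-chip cells, against 0, 17.1 and 437 in small-chip cells (log2 ratio 2.47), a difference of level more than of presence, since it was above 0 in 20 of 23 and 20 of 27 cells. Sds, serine dehydratase, which feeds serine into gluconeogenesis, was above 0 in 12 of 23 medium-chip cells at up to 1225 and in 9 of 27 small-chip cells at up to 352 (log2 ratio 2.98, and 3.57 without the highest cell of each chip). Tat, which starts tyrosine breakdown, was 18.5, 365 and 19614 in medium-chip cells, against 19.4, 147 and 1681 in small-chip cells. Its log2 ratio was 2.45, and 1.47 without the highest cell of each chip.

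Ass1, argininosuccinate synthase of the urea cycle (chr2:31470207-31520672, plus strand), was 9.29, 181 and 6726 in medium-chip cells, against 0, 23.9 and 843 in small-chip cells (log2 ratio 2.53). Cps1, the entry enzyme of the cycle, was 6.76, 377 and 4646 in medium-chip cells, against 0, 164 and 2094 in small-chip cells (log2 ratio 1.94). Most cells of both chips held both genes, and the difference lay in the level. Of medium-chip cells, 87.0% lay above the small-chip median for Ass1, but only 60.9% for Cps1. Asl, the next enzyme after Ass1, went the other way: its values were 0, 4.19 and 993 in medium-chip cells, against 0, 12.02 and 3308 in small-chip cells (log2 ratio -1.42). Arg1, the last enzyme of the cycle, had a log2 ratio of 0.96 and was not called. Of 12 genes of the urea cycle and ammonium handling compared, 5 were called higher in medium-chip cells and 2, Asl and Oat, higher in small-chip cells. Over all genes these shares were 14.9% and 7.26%.

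Among genes of gluconeogenesis, Fbp1, fructose-bisphosphatase, was 3.84, 235 and 4562 in medium-chip cells, against 0, 54.7 and 2777 in small-chip cells (log2 ratio 1.88). Pck1, the entry step of gluconeogenesis, was 798, 2925 and 7703 in medium-chip cells, against 228, 1572 and 4308 in small-chip cells. Its log2 ratio of 0.83 fell short of the call, although 91.3% of medium-chip cells lay above the small-chip median. Cyp2f2, a P450 and a widely used periportal marker, was 30.8, 897 and 4747 in medium-chip cells, against 25.4, 479 and 13830.1 in small-chip cells. Its mean was lower in medium-chip cells (log2 ratio -0.69, not called) while its median was higher, since 4 small-chip cells lay above all medium-chip cells.

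The landmark score of a cell was the mean log2(value + 10) of 6 pericentral genes (Glul, Cyp2e1, Cyp1a2, Oat, Gulo, Slc1a2) minus that of 6 periportal genes (Cyp2f2, Ass1, Asl, Hal, Sds, Pck1). It ran from -5.28 over a median of -3.67 to -0.91 in medium-chip cells, against -2.94, -1.18 and 1.77 in small-chip cells. A score above 0, more pericentral than periportal, occurred in 0 of 23 medium-chip cells (0%, 0% to 14.8%) and in 10 of 27 small-chip cells (37.0%, 19.4% to 57.6%). At least 2 pericentral landmarks reached a value of 100 in 1 of 23 medium-chip cells (4.35%) and in 18 of 27 small-chip cells (66.7%). At least 2 periportal landmarks did so in 22 of 23 medium-chip cells (95.7%) and in 23 of 27 small-chip cells (85.2%). Periportal transcripts were thus common on both chips, and both kinds at this level were found together in 1 of 23 medium-chip captures (4.35%, 0.110% to 21.9%) and in 15 of 27 small-chip captures (55.6%, 35.3% to 74.5%). Captures with under 50% spike-in held both kinds in 2 of 7 medium-chip cells and in 3 of 12 small-chip cells, and high spike-in captures of the large chip in 3 of 16. The part of doublets or of free RNA in captures that hold both was not tested.

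**Figure D2:**
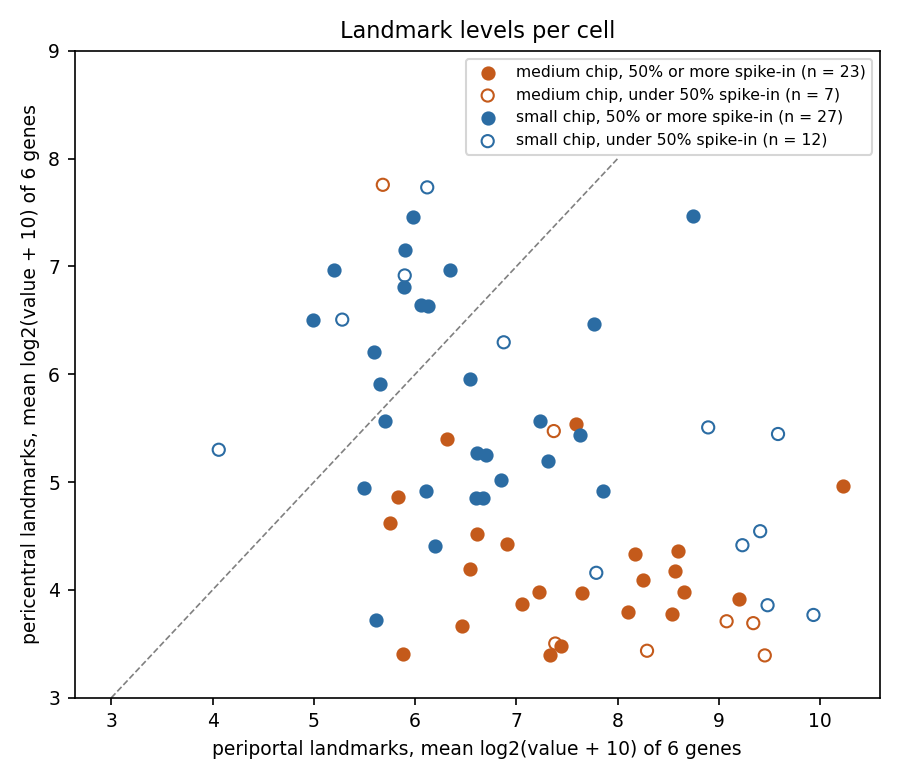
Mean log2(value + 10) of the 6 periportal landmarks (x axis) and the 6 pericentral landmarks (y axis) in each medium-chip (orange) and small-chip (blue) cell, filled for 50% or more spike-in and open for less; the dashed line marks equal levels. All 23 filled medium-chip points lie under the line, and 10 of the 27 filled small-chip points lie above it.

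The same genes in the 19 captures with under 50% spike-in give a comparison from the same chips. Median Cyp3a11 was 0.299 on the medium chip (7 cells) and 27.4 on the small chip (12 cells), and median Rgn was 1.10 and 188. These small-chip medians were below those of the high spike-in small-chip cells (418 and 1012). Median Oat was 0 on the medium chip and 13.2 on the small chip among these 19 cells. Median Uroc1 was 68.1 and 32.2, and median Ass1 1082 and 1123, so that these periportal genes lay closer together between the chips. By the means of these 19 cells, the log2 ratios were -0.80 for Cyp3a11, -0.64 for Oat and -1.51 for Rgn, so of these only Rgn exceeded 2-fold. Cyp2e1 (-1.36), Cyp2c68 (-2.53), Mup17 (-1.80) and Mup19 (-1.68) also exceeded it, and Cyp2c54 (-0.91) did not. The median log2 ratio was -0.72 for the pericentral list and 0.22 for the periportal list. The 12 small-chip cells include cell 1, with 16 macrophage markers at 10 or more, and cell 39, with 19 endothelial markers. Whether the chip difference itself differs with the spike-in share was not tested.

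Major urinary proteins are small secreted lipocalins that carry pheromones, made in large amounts by male mouse liver. As a family they took a median of 39.9% of the rescaled sum in medium-chip cells (7.90% to 60.1%) and 45.1% in small-chip cells (27.8% to 60.3%). Within the family, 1 member was called higher in medium-chip cells and 3 higher in small-chip cells of 19 compared, against 14.9% and 7.26% over all genes. Mup19 (chr4:61778324-61782269, minus strand) was 0, 959 and 20997 in medium-chip cells, against 10277, 48678 and 187132 in small-chip cells. Its log2 ratio was -3.74, and 26 of 27 small-chip cells lay above every medium-chip cell. Mup17 was 127, 1188 and 7738 in medium-chip cells, against 4781, 15804 and 68870.4 in small-chip cells (log2 ratio -3.32). In captures with under 50% spike-in, median Mup19 was 938 in medium-chip cells and 3193 in small-chip cells. Copies of this family are near-identical, so the split of reads among them is uncertain and a difference of 1 copy may belong to another.

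General hepatocyte transcripts were present on both chips. All 50 cells had at least 10 of 16 hepatocyte identity genes above 0, and of 15 compared, 2 were called higher in medium-chip cells and 1 higher in small-chip cells. Alb, serum albumin, was 5544, 32169 and 72493 in medium-chip cells, against 4314, 21946 and 70264 in small-chip cells (log2 ratio 0.29, not called). Apoa1, Apoe and Ttr, which carry lipid or thyroid hormone in plasma, had log2 ratios of 0.06, -0.53 and 0.48 and were not called. Of 36 plasma protein genes, 1 was called higher in medium-chip cells (Apoc4, an apolipoprotein, log2 ratio 1.97) and 6 higher in small-chip cells. The median log2 ratio of the list was -0.25. Over all genes, 14.9% were called higher in medium-chip cells and 7.26% higher in small-chip cells. Without the 2 cells with macrophage markers, 1 and 4 of the plasma protein genes were called, against 11.2% and 8.32% over all genes. By differences of mean log2 values 3 and 2 of them were called, against 117 and 104 of all 4507 genes. Ahsg, fetuin-A, was 10.1, 1118 and 5414 in medium-chip cells, against 34.05, 1321 and 11883 in small-chip cells (log2 ratio -1.14), with similar medians and a longer upper tail in small-chip cells. Serpina1d, an alpha-1 antitrypsin copy, had a log2 ratio of -1.58 and coagulation factor F9 one of -3.40, the last going to -2.06 without the highest cell of each chip. Serpina1 copies are near-identical, so the split of their reads is uncertain. Hnf4a, a transcription factor central to hepatocyte identity, was 0, 32.95 and 2658 in medium-chip cells, against 0, 9.53 and 233 in small-chip cells (log2 ratio 3.25).

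Among defence genes, 3 of 18 complement genes were called higher in medium-chip cells and 4 higher in small-chip cells, the first share being close to the 14.9% over all genes. Mbl2, mannose-binding lectin, had a log2 ratio of -2.40 at medians of 35.9 in medium-chip cells and 42.9 in small-chip cells. Of 21 acute-phase genes, 0 were called higher in medium-chip cells and 5 higher in small-chip cells, the share in the small direction over all genes being 7.26%. Without the 2 cells with macrophage markers the counts were 0 and 3 (median log2 ratio -0.12), against 11.2% and 8.32% over all genes. By differences of mean log2 values they were 1 and 1 (median 0.016). Fatty acid oxidation and ketogenesis had 6 called higher in medium-chip cells and 4 higher in small-chip cells of 25. Cpt1a and Cpt2, which bring fatty acids into mitochondria, had log2 ratios of 3.09 and 3.46. Both rest on few high cells: 4 and 5 medium-chip cells lay above the highest small-chip cell, and Cpt2, above 0 in 11 of 23 and 12 of 27 cells, had a ratio of 2.81 without the highest cell of each chip. Of 15 cholesterol synthesis genes, 3 were called higher in medium-chip cells and 0 higher in small-chip cells, and of 7 glutathione transferase genes 0 and 1.

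Medium-chip cells 1 and 4 stood apart from the other members. They held 15 and 16 of the 17 Kupffer cell and macrophage markers in the table at a value of 10 or more, with summed marker levels of 26570 and 44789 (Kupffer cells are the resident macrophages of the liver), against at most 6 markers in any other member. The highest summed level in small-chip members was 265, and the medians were 8.72 in medium-chip cells and 9.71 in small-chip cells. Cd5l, a macrophage-secreted protein, ran from 4158 to 8819 in these 2 cells, reached 78.6 in the other 21 medium-chip cells and 8.62 in small-chip cells. Clec4f, a receptor specific to Kupffer cells in mice, ran from 1581 to 4571, against at most 17.0 in the other medium-chip cells and 24.4 in small-chip cells. The same 2 cells held Alb at 5544 and 6500, below the lowest of the other medium-chip cells (10724) but above the lowest of the small-chip members (4314). They were the 2 medium-chip members nearest the threshold. Captures of this kind were not particular to the medium chip: small-chip cell 1, left out by its spike-in share of 41.4%, held 16 of the markers at a summed level of 57326. The cut of 8 markers that sets them apart was chosen after the values were seen.

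**Figure D3:**
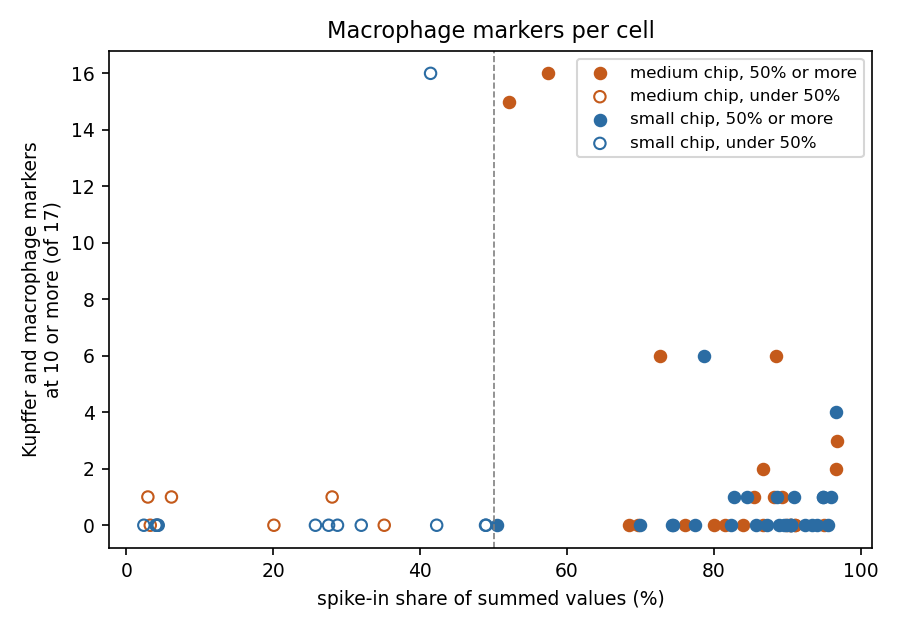
Number of the 17 Kupffer cell and macrophage markers at a rescaled value of 10 or more (y axis) against the spike-in share (x axis, %) in each medium-chip (orange) and small-chip (blue) cell, with the 50% threshold dashed. Medium-chip cells 1 and 4, at 52.1% and 57.4%, hold 15 and 16 markers, and no other cell right of the line holds more than 6.

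Of the 17 markers 8 passed the detection filter, and all 8 were called higher in medium-chip cells, at a median log2 ratio of 4.53. Without the 2 cells 0 were called, at a median of 0.30. These same markers set the 2 cells apart, so that fall was fixed by the choice of cells. Only 6 of the markers passed the filter without the 2 cells. Over the same 4507 genes, the calls without them were 505 (11.2%) in the medium direction and 375 (8.32%) in the small direction, of which 479 and 309 were calls with all cells, and the median log2 ratio over all genes was 0.036. The pericentral list then had 0 called higher in medium-chip cells and 12 higher in small-chip cells (median -1.70), and the periportal list 10 and 1 (median 1.02). At least 3 markers at 10 or more were found for macrophages in 5 of 23 medium-chip cells and 2 of 27 small-chip cells, for endothelial cells in 0 and 2, and for stellate cells in 2 and 0. For bile duct cells, lymphocytes, neutrophils, and erythroid cells and platelets no member reached 3 (0 of 23, up to 14.8%, and 0 of 27, up to 12.8%).

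Immediate early genes, which are switched on within minutes of stimulation or handling of cells, had calls in the medium direction, in a number that depended on the cells included. Of 14 compared, 10 were called higher in medium-chip cells and 0 higher in small-chip cells (median log2 ratio 2.05), against 14.9% and 7.26% over all genes. Without the 2 macrophage-marker cells the count was 7 and 0, at a median of 1.30. It was 5 and 0 without all cells holding 3 or more markers of another cell type (median 1.19). At 70% spike-in or more it was 6 and 0 of 13 (median 1.38), and by differences of mean log2 values 5 and 0 (median 0.83). Over all genes, the shares were 11.2% and 8.32% without the 2 macrophage-marker cells. The other 3 settings gave, in the same order, 446 and 442 of 4266 genes, 434 and 397 of 4063, and 117 and 104 of 4507. Fos, an AP-1 subunit, was 0, 180.5 and 8703 in medium-chip cells, against 0, 70.01 and 452 in small-chip cells. The log2 ratio of 3.30 went to 2.51 without the 2 cells. Atf3, a stress-responsive transcription factor, was above 0 in 10 of 23 medium-chip cells at up to 5516, and in 4 of 27 small-chip cells at up to 22.9. The log2 ratio of 5.56 went to 4.03 without the 2 cells. Btg2, an antiproliferative gene, was 0, 11.7 and 8874 in medium-chip cells, against 0, 1.10 and 36.8 in small-chip cells (log2 ratio 4.97, and 3.02 without the highest cell of each chip). Jun, the partner of Fos, was not called, at a log2 ratio of -0.41.

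Metallothionein Mt1, which binds zinc and copper, was 0, 97.2 and 1914 in medium-chip cells, against 0, 7.48 and 257 in small-chip cells. Its log2 ratio was 3.06, with 8 medium-chip cells above the highest small-chip cell, and 3.15 without the 2 macrophage-marker cells. Fth1, the ferritin heavy chain for iron storage, had a log2 ratio of 1.52, and of 0.72 without the 2 cells, which ends its call. Of 12 heat shock genes, 4 were called higher in medium-chip cells and 1 higher in small-chip cells. The median log2 ratio of that list was 0.59, and -0.11 when cells were scaled without the 50 genes of largest sum. Of 17 genes of endoplasmic reticulum stress and folding, 4 were called higher in medium-chip cells and 1 higher in small-chip cells, against 14.9% and 7.26% over all genes. Its median log2 ratio of 0.081 went to -0.32 when scaled without the 50 genes of largest sum (2 and 2 called). Without the 2 macrophage-marker cells it was -0.045. The median over all genes moved too, from 0.16 to -0.14 under that scaling and to 0.036 without the 2 cells. The folding list lay below that median each time, and the heat shock list lay above it under that scaling.

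Nuclear-encoded oxidative phosphorylation genes, subunits of the respiratory chain and ATP synthase, had 17 called higher in medium-chip cells and 4 higher in small-chip cells of 55 (median log2 ratio 0.60). For this list and the next, the shares over all genes were 14.9% and 7.26%, and 11.2% and 8.32% without the 2 macrophage-marker cells. Without the 2 macrophage-marker cells the counts were 17 and 4 and the median 0.38. Scaling without the 50 genes of largest sum gave 12 and 9, at a median of 0.21. Over all 4507 genes that scaling gave 646 and 826, at a median of -0.14, against 0.16 in the main setting. Uqcrh, a complex III subunit, was above 0 in 18 of 23 medium-chip cells at a median of 3.85, and in 8 of 27 small-chip cells at a median of 0 (log2 ratio 3.94, and 2.51 without the highest cell of each chip). Cox7a2 and Cox6b1, complex IV subunits, had log2 ratios of 3.75 and 2.95. Cytosolic ribosomal proteins had 18 called higher in medium-chip cells and 7 higher in small-chip cells of 63 (median log2 ratio 0.60), but 15 and 18 without the 2 macrophage-marker cells (median 0.27). Rps13 was above 0 in 18 of 23 medium-chip cells (78.3%, 56.3% to 92.5%) and in 6 of 27 small-chip cells (22.2%, 8.62% to 42.3%), at a log2 ratio of 2.85. Processed pseudogenes of ribosomal protein genes can share reads with them, so single values are uncertain.

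Most of the genes last named have short transcripts, and the calls moved with transcript length. In 5 bins of the longest annotated transcript, from the shortest to the longest, 20.3%, 17.9%, 11.8%, 13.6% and 11.3% of genes were called higher in medium-chip cells. The share called higher in small-chip cells ran at 8.31%, 7.04%, 7.12%, 7.02% and 6.80%. The part of transcript length in the result for ribosomal and respiratory genes was not tested.

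**Figure D4:**
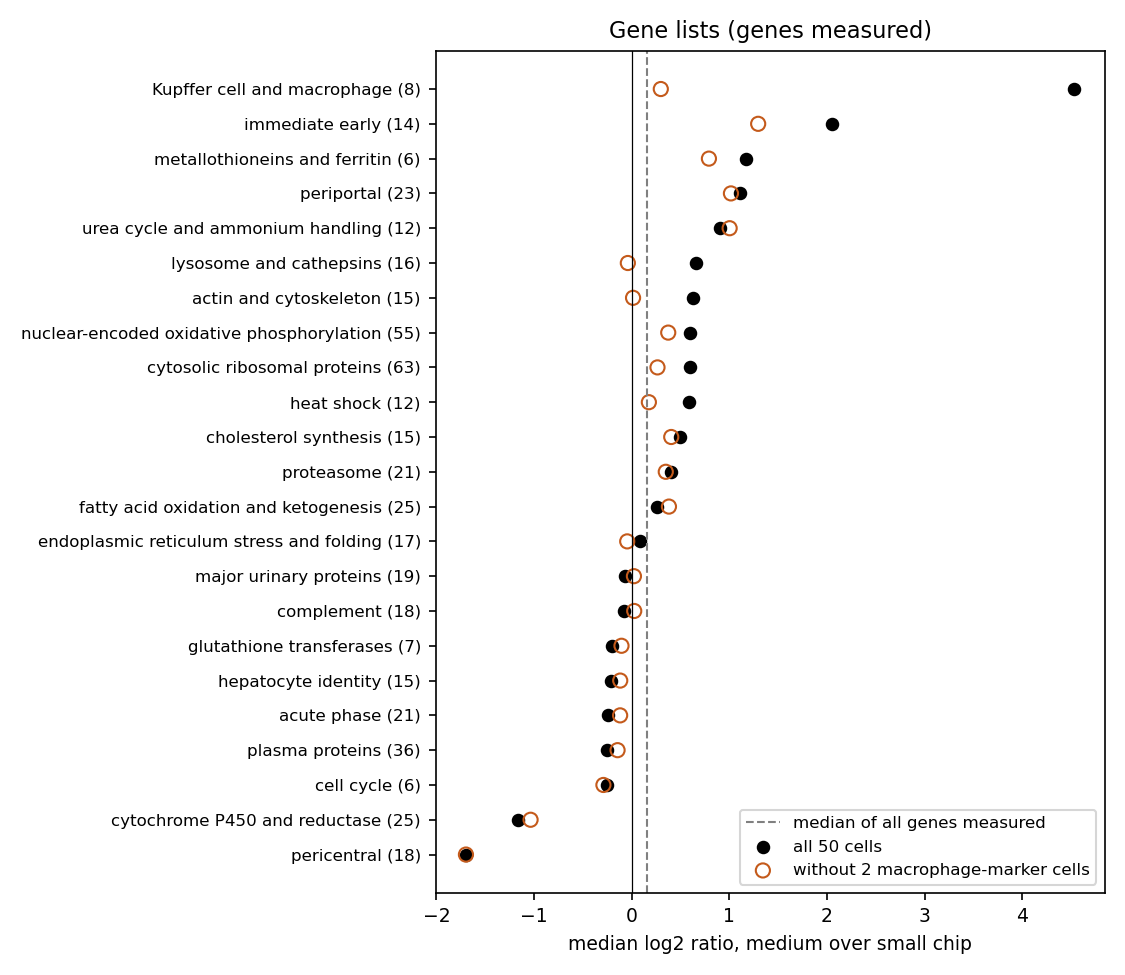
Median log2 ratio, medium over small chip, of each gene list with 5 or more genes compared (number in brackets), with all 50 cells (filled) and without the 2 macrophage-marker cells (open). The pericentral list lies lowest at -1.69 and hardly moves, and the periportal list lies at 1.11. The macrophage list, whose markers set the 2 cells apart, goes to 0.30 without them. The dashed line is the median of all genes, 0.16.

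Cytoskeletal genes had 5 called higher in medium-chip cells and 0 higher in small-chip cells of 15, with and without the 2 macrophage-marker cells, at medians of 0.63 and 0.015. Tmsb4x, thymosin beta 4, an actin-binding protein abundant in blood and immune cells, was 0, 4.19 and 16012 in medium-chip cells, against 0, 0 and 43.8 in small-chip cells. The log2 ratio of 6.77 went to 4.72 without the 2 cells. Krt8, an epithelial keratin of hepatocytes, was above 0 in 15 of 23 medium-chip cells and in 8 of 27 small-chip cells (log2 ratio 3.43). Lysosome and cathepsin genes had 6 called higher in medium-chip cells and 2 higher in small-chip cells of 16, but 1 and 2 without the 2 cells. Proteasome genes had 6 and 2 of 21, but 0 and 0 by differences of mean log2 values. Psma2, a core subunit, led them, above 0 in 15 of 23 medium-chip cells and in 3 of 27 small-chip cells. Its log2 ratio was 3.88, and 2.67 without the highest cell of each chip. For all these lists, the shares called over all genes were 14.9% in the medium and 7.26% in the small direction. Those shares were 11.2% and 8.32% without the 2 macrophage-marker cells. Differences of mean log2 values gave only 117 and 104 calls over all 4507 genes, so 0 and 0 of 21 proteasome genes is near the general share. Tyms, thymidylate synthase of DNA synthesis, was the only called gene of 6 cell cycle genes compared. It was 0, 0 and 156 in medium-chip cells, against 0, 19.9 and 1665 in small-chip cells, at a log2 ratio of -3.35.

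Outside the lists, Tmem258, a subunit of the oligosaccharyltransferase, was above 0 in 15 of 23 medium-chip cells at up to 5178 and in 4 of 27 small-chip cells at up to 329 (log2 ratio 4.17). Znrf1, a ubiquitin ligase, was above 0 in 13 of 23 medium-chip cells and in 2 of 27 small-chip cells (log2 ratio 3.99, and 3.32 without the highest cell of each chip). Maob, monoamine oxidase B, had a log2 ratio of 6.31 that 1 cell at 74887 carried, and 1.78 without the highest cell of each chip. In the other direction, Thrap3, a splicing-associated protein, was above 0 in 1 of 23 medium-chip cells and in 14 of 27 small-chip cells (log2 ratio -4.04). That ratio went to -2.11 without the highest cell of each chip, so part of its size lies in a single cell.

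**Figure D5:**
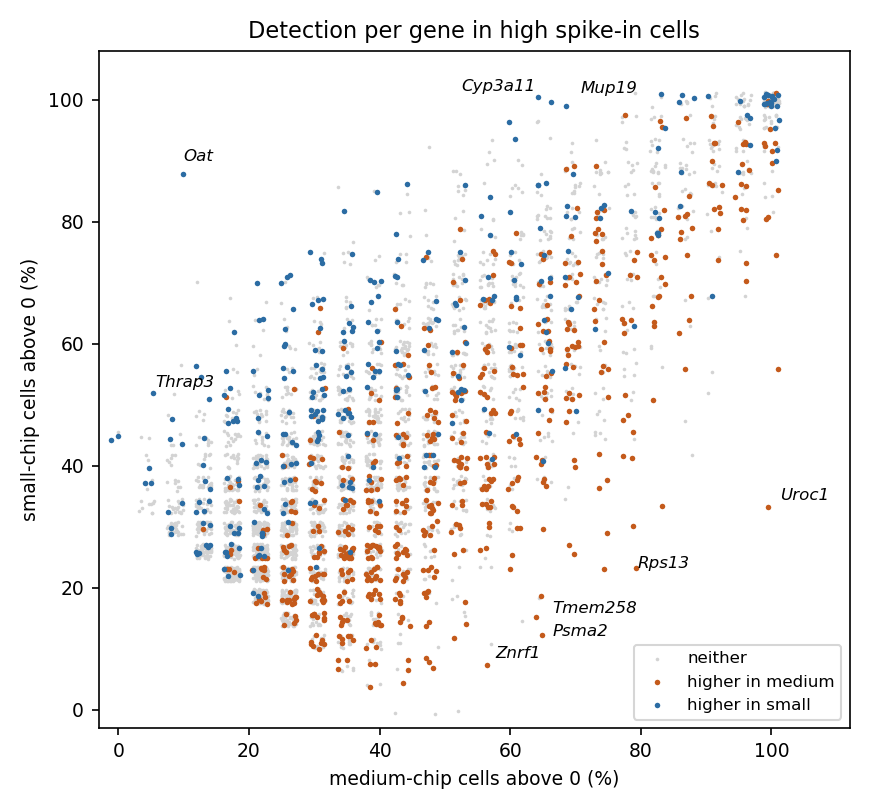
Share of medium-chip cells (x axis, %) and small-chip cells (y axis, %) with a value above 0 for each of the 4507 genes compared, with small random offsets; colours mark genes called higher in medium-chip cells (orange) or in small-chip cells (blue). Oat stands alone at 8.70% and 88.9%, and Uroc1 lies at 100% and 33.3%.

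The Spearman correlation between pairs of cells over the 4507 genes had a median of 0.27 within medium-chip cells, 0.28 within small-chip cells and 0.26 between the chips. Between the mean profiles of the 2 sets it was 0.56. With the under 50% cells of the medium and the small chip, the values were 0.63 and 0.63 for medium-chip members and 0.62 and 0.58 for small-chip members. With the large-chip high spike-in cells they were 0.61 and 0.65. All these were higher than 0.56. Without the 2 macrophage-marker cells, the 2 sets had 0.575, about equal to the 0.576 between small-chip members and small-chip cells under 50%. Medium-chip members then had 0.64 and 0.60 with the under 50% cells of the medium and the small chip. These are descriptions over sparse values that share 1 mouse and, within a chip, 1 library run as far as the labels say.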

How the data were processed

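Single cells were captured on Fluidigm C1 chips and their RNA was sequenced with ERCC spike-ins. The deposited values are a normalised signal: per the submitters' processing notes the tools were CASAVA 1.8.2, Bowtie 0.12.9 and RSEM 1.2.3 on mm10, and the authors deposited 1 table of normalised expected counts for 20308 mouse genes, 92 spike-ins and 149 cells. The name of that table mentions SCnorm, a normalisation by groups of genes, and its settings are not given in the sources used here. Whole reads could not be recovered from it, so read depth is unknown and the number of cells limits precision.

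Each cell was rescaled to a mouse gene sum of 1000000. Per gene, log2((medium mean + 10)/(small mean + 10)) was computed for 4507 genes above 0 in 20% of the 50 cells. A gene was called at 2-fold or more, also without the highest cell of each chip. The added 10 understates ratios of low genes. No test was run, since there is 1 chip per group. The calculation was tested on simulated data. Each gene's values were there shuffled between the chips separately, which does not keep cells whole. Calls still arose among unchanged genes, so a single call is a description.

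The members and gene lists were chosen with earlier results of these data known. Genes named are 8 hepatocyte genes (Alb, Apoa1, Apoe, Ttr, Cyp2e1, Cyp2f2, Glul, Ass1), up to 3 per list with the largest ratio in size and up to 12 called genes per direction above 0 in 50% of the cells of the higher chip. The text quotes part of them, some are not reported here, and adds list members chosen after their values were seen (Rgn, Gulo, Slco1b2, Cyp1a2, Tbx3, Slc1a2, Hal, Tat, Cps1, Fbp1, Asl, Arg1, Pck1, Jun, Ahsg, Clec4f). No cell was left out for doublets, and no doublet caller was run. Lengths and positions are from GENCODE M21 (GRCm38, the build of mm10), matched for 99.6% of genes. Of 7 genes looked up for upstream sequence, 5 matched, all on GRCm38.p6 of RefSeq. Alternatives covered the added value, the detection filter, the scaling, the mean of log2 values, the spike-in threshold and the cells included. The software was pandas 2.3.3 with numpy 2.4.6 under Python 3.11.15, matplotlib 3.10.9 for figures and scipy 1.17.1 for intervals.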

Additional observations from a re-analysis of the deposited data

How the results depend on the processing

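Counts of genes called depended strongly on the settings, while the pericentral and periportal lists kept their directions in every setting run: the pericentral median ran from -2.43 to -1.09 and the periportal median from 0.82 to 1.53. Against 673 genes higher in medium-chip cells and 327 higher in small-chip cells, adding 1 in place of 10 gave 1066 and 836, adding 50 gave 224 and 82, and differences of mean log2 values gave 117 and 104. Values as deposited gave 856 and 200, scaling to the spike-ins 931 and 212, and scaling without the 50 genes of largest sum 646 and 826. Members at 70% spike-in or more (19 medium-chip and 25 small-chip cells) gave 434 and 397. Without the cells holding 3 or more markers of another cell type there were 446 and 442, so that the medium excess was nearly gone. The median of ribosomal proteins was then 0.0059, against 0.60, and the median over all genes -0.040, against 0.16. Of the 67 genes followed through every setting, the ratio of 3 changed sign. Rpl6 (-2.46) was at 0.19 with scaling to the spike-ins, Decr1 (-4.84) at 0.41 in members of 50% to 90% spike-in, and Cd74 (4.90) at -0.11 in members of 70% or more, at -0.39 without cells holding markers of another type and at -0.11 without the 2 macrophage-marker cells. Cd74 lies highest in those cells. The highest small-chip cell was at 22610 for Decr1 and 6494 for Rpl6. Without the highest cell of each chip the ratio was -2.03 for Decr1 and -1.14 for Rpl6. The cause of their change of sign was not tested. Leaving out the 2 macrophage-marker cells was chosen after the data were seen. No paired analysis was possible because the cell numbers only name cells within a chip. The unknown depth and the few cells limit what the absence of a gene at 0 can show.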
